A study of Homo sapiens with 14 samples.

Results

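The spliceosomal U small nuclear RNAs were examined in OCI-AML2, an established human acute myeloid leukaemia cell line, by reading every gene annotated as snRNA in GENCODE 29 whose symbol begins RNU and which had at least 20 reads summed over the 4 RiboLace libraries. Of 1806 such genes in a table of 58037 gene IDs, 112 met that minimum. They comprised 18 genes of the U1 class, 22 of U2, 7 of U4, 1 of U4atac, 7 of U5, 55 of U6, 1 of U6atac and 1 of U7, and no gene of the U11 or U12 class. RiboLace captures ribosomes in active translation on beads that carry a puromycin-like reagent, and the RNA they hold is sequenced.

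The mutant cells carried RUNX1 R174* on 1 allele, with the other allele unaltered, as lines F3 and G7. Wild-type cells were the parent line, with both RUNX1 alleles unaltered. RiboLace libraries came from mutant line F3 (n = 2) and from the parent line (n = 2), all untreated per the labels. Total RNA libraries came from mutant cells given 100 nM HHT (homoharringtonine, an inhibitor of protein translation) for 8 h (n = 4, 2 of each line), from their controls (n = 4, 2 of each line), and from untreated parent cells (n = 2). The control libraries are labelled 8 h in one field and 0 h in another, and the wild-type libraries 0 h, so a time effect and an HHT effect cannot be told apart if the second label is right. RiboLace holds no library of line G7, so the mutation and the particular line cannot be told apart there. Nothing in the labels says that replicates came from separate cultures, and p-values measure the spread between these libraries, which may be technical.

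Each U small nuclear RNA is a short nuclear RNA that works inside a particle with its own proteins. U1 pairs with the 5′ splice site of an intron and U2 with the branch point, while U4, U6 and U5 join as a tri-snRNP in which U4 holds U6 until the spliceosome is activated. U4atac, U6atac, U11 and U12 do the corresponding work for the rare minor-class introns, and U7 directs the 3′ end processing of replication-dependent histone mRNAs. Most are made by RNA polymerase II and carry a ring of Sm proteins, and U6 and U6atac are made by RNA polymerase III and carry LSm proteins. The human genome holds a few functional genes of each class and a very large number of pseudogenes copied from the RNAs.

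The sequences below show which copies of U4atac, U2, U4 and U1 held the reads, from GENCODE 29 transcripts on GRCh38, 5′ to 3′ in the annotated gene's direction. In the class genes RNU1-1, RNU2-1 and RNU4-2, and in RNU4ATAC, capitals mark a functional stretch: ACTTACCTG, the U1 bases that pair with the 5′ splice site, GTAGTA, the U2 bases that pair with the branch point, and AATTTTTG, the Sm site. In the other sequences capitals mark bases unlike the class gene, and a base lost from them leaves no capital.
RNU4ATAC: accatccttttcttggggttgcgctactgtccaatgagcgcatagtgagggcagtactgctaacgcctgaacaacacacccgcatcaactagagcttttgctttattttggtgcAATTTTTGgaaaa
RNU2-1: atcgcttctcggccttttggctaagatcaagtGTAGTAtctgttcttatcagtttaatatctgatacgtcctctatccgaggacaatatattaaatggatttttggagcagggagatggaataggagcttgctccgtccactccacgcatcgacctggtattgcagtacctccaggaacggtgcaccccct
RNU2-37P: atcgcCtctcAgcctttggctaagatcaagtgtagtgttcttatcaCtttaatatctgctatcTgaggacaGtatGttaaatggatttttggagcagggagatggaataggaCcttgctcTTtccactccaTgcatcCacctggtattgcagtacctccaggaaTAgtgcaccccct
RNU2-6P: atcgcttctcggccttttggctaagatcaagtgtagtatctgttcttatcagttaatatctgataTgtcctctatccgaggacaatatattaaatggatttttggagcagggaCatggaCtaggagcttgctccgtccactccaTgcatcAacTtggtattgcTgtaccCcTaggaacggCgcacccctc
RNU4-2: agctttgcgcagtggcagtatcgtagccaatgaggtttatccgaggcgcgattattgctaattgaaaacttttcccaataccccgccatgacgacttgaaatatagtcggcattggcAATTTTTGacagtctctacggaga
RNU4-1: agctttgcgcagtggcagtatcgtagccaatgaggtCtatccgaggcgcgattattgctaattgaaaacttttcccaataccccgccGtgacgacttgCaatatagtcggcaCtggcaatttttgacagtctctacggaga
RNU4-82P: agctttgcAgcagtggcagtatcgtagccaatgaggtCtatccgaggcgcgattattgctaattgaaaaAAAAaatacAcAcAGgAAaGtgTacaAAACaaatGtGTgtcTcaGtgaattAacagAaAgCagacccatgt
RNU1-1: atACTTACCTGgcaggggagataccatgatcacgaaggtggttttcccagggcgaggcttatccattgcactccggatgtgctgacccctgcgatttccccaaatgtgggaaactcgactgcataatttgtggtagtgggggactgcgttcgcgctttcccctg
RNU1-63P: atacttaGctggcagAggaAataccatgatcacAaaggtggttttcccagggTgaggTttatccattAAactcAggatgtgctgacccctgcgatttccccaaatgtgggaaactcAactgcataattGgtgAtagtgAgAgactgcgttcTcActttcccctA

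RNU4ATAC (chr2:121530881-121531007, plus strand) is the only U4atac gene without a pseudogene name and lies on the opposite strand in an intron of CLASP1. RNU5E-1 differs from the class gene RNU5A-1 in 14 of 120 aligned columns and lies in an exon of the noncoding gene AL021155.2, which is not among the IDs counted. RNU2-37P (chr3:128075073-128075249, minus strand), in an intron of RUVBL1, and RNU2-6P (chr13:46374401-46374590, minus strand), in an intron of RUBCNL, match RNU2-1 (chr17:43233787-43233977, minus strand) at 85.9% and 93.7% of aligned columns. RNU4-2 (chr12:120291763-120291903) and RNU4-1 (chr12:120293097-120293237) are neighbours on the minus strand that differ in 4 of 141 columns. RNU4-82P (chr9:124887410-124887549, minus strand), in an intron of GOLGA1, matches RNU4-2 at 71.6% of columns, and its capitals crowd into the 3′ part of the sequence. RNU1-63P (chr4:67429591-67429754, minus strand) matches RNU1-1 (chr1:16514122-16514285, minus strand) at 89.6%. Of the U6 genes, RNU6-44P (chromosome 11) matches the class gene RNU6-1 at 95.3% of columns and RNU6-758P (chromosome 16, in no other gene) at 67.8%.

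Reads were held by few genes. The 112 genes had 133918 RiboLace reads, 99.08% of those on all RNU genes, and these reads chose them, so their level in RiboLace is a description. RNU4ATAC alone had 27619 reads (20.6% of them), RNU4ATAC and RNU5E-1 together 40%, and the 10 most read genes 76.03%. Per kilobase of gene, RNU4ATAC averaged 49666 CPM (reads of the gene per 1000000 reads of the library) in mutant and 40014 CPM in wild-type RiboLace, RNU5E-1 30783 and 49657 CPM, and RNU6-758P 32900 and 15915 CPM. Just inside the minimum stood RNU6V with 20 reads and RNU2-44P, RNU6-414P and RNU6-1005P with 21 each, and just outside it RNU6ATAC, the class gene of U6atac, RNU6-532P and RNU6-393P with 19 each. Wild-type libraries gave 92489 of the member reads and mutant libraries 41429, but genes near the minimum did not all follow that balance. RNU6V had 6 and 1 reads in mutant and 11 and 2 in wild type, and RNU6-346P had 10 and 7 in mutant and 3 and 2 in wild type.

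Of the 112 genes, 103 have a pseudogene name. The other 9 were RNU4ATAC, RNU4-1, RNU4-2, RNU5A-1, RNU5B-1, RNU5D-1, RNU5E-1, RNU5F-1 and RNU6V. The multi-copy genes that supply most of the cell's U1, U2 and U6 were almost unread: RNU1-1, RNU1-2, RNU1-3 and RNU1-4 had 0 to 3 RiboLace reads each, RNU2-1 had 0, and RNU6-1, RNU6-2, RNU6-7, RNU6-8 and RNU6-9 had 0 to 7. RNU7-1, RNU11 and RNU12 were also at 0. No more than 3% of the 25-base stretches of these genes are absent from every other GENCODE transcript, against a median of 66.7% in the 112 genes. The exceptions among the well-read genes include RNU5E-1 at 0%, since AL021155.2 contains it whole, and RNU4-1 and RNU4-2 at 34.2%. RNU11, RNU12 and RNU7-1 each overlap an exon of another counted gene on the same strand. The sources used here do not say how reads that match several genes were counted, and counts per gene do not show which bases a read covered. From the counts alone, a read on a pseudogene therefore cannot be told apart from a read of the RNA it was copied from.

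**Figure D1:**
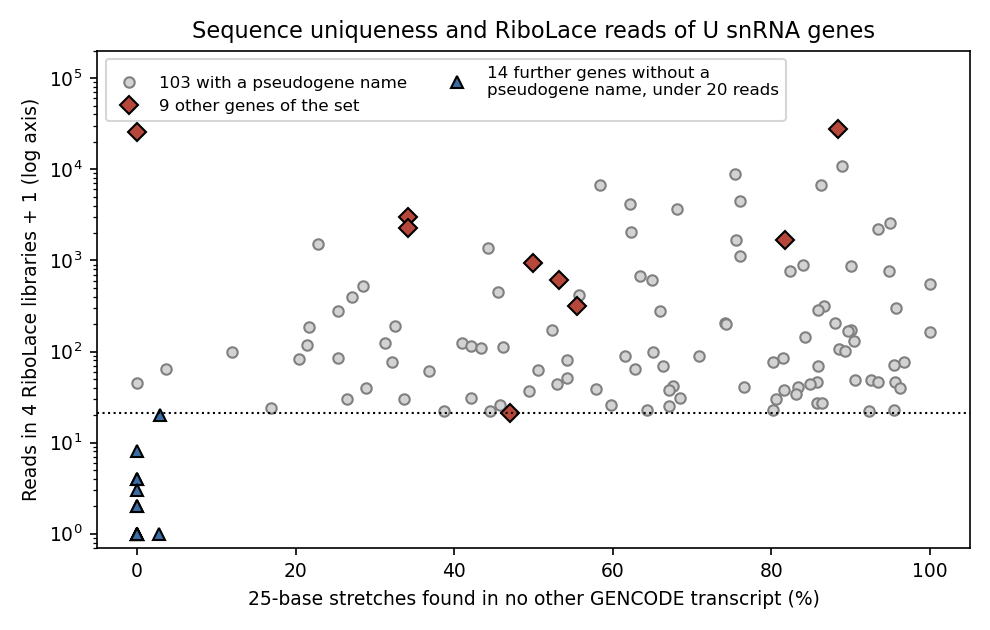
RiboLace reads (4 libraries summed, plus 1, log axis) against the share of a gene's 25-base stretches found in no other GENCODE transcript, for the 112 genes (grey circles with a pseudogene name, red diamonds without) and for 14 further genes without a pseudogene name that had under 20 reads (blue triangles). The dotted line marks the minimum of 20 reads, and all 14 triangles sit at the left, with no more than 3% of their stretches unique.

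The functional stretches were no more frequent in the copies that held reads, except in U5 and to a lesser degree in U4 and U6. ACTTACCTG was present in 3 of 18 U1 genes of the set and 32 of 103 other U1 genes, GTAGTA in 11 of 22 and 25 of 49 U2 genes, and AATTTTTG in 4 of 7 and 31 of 83 U4 genes. GCCTTTNAN, the U5 loop that touches the exons, was present in 7 of 7 and 9 of 24 U5 genes, and ACAGAGA, the U6 box at the 5′ splice site, in 37 of 55 and 655 of 1222 U6 genes. These were searched on the gene's strand, the motifs do not overlap each other, and on the reverse strand only ACAGAGA matched, in 8 of the 1222 other U6 genes. The kinds of gene compared also differ. Of the 7 U5 genes of the set 5 have no pseudogene name, against 0 of the 24 others. RNU1-1 to RNU1-4 and RNU2-1 are among the other genes. The part of this in the motif shares was not tested. Genomic setting was alike: 43 of the 112 genes overlapped no other gene (38.4%), against 39.6% of the other 1694. Of the rest, 54 lay in introns of protein-coding genes, 31 of them on the strand of the host.

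Depth and cell identity were as follows. RiboLace libraries had 1192811 and 465052 reads in mutant and 2034796 and 1054581 reads in wild type, and total RNA libraries 19250789 to 21925693. Of 7 myeloid markers all were read, with summed levels of 720.3 to 1344 CPM in RiboLace and 847 to 1235 CPM in total RNA. Lymphoid markers summed to 6.45 to 17.7 CPM in RiboLace and 7.79 to 17.4 CPM in total RNA. The erythroid list summed to 0 CPM in RiboLace and at most 0.0469 CPM in total RNA, with 4 of 5 genes at 0 throughout, and of 8 epithelial and stromal markers 3 were at 0 throughout, EPCAM among them. Their sum was 64.5 to 97.8 CPM in RiboLace and 18.1 to 167.9 CPM in total RNA, nearly all of it PECAM1 in total RNA, a gene that blood cells also express. In RiboLace COL1A1, a stromal marker, added 14.25 and 23.65 CPM in mutant and 5.41 and 10.4 CPM in wild type. Its highest level in total RNA was 0.312 CPM.

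The assays differed by orders of magnitude for these RNAs. All RNU genes together took 23925 and 28909 CPM in mutant RiboLace libraries and 34176 and 22412 CPM in wild-type RiboLace libraries. In total RNA they took 6.30 to 7.84 CPM in mutant cells given HHT, 8.16 to 10.2 CPM in mutant controls, and 7.83 and 8.28 CPM in wild-type cells. Other short RNAs stood apart between the assays too. RNY1, a cytoplasmic Y RNA, had 7208 and 3907 CPM in mutant RiboLace and 4996 and 8196 CPM in wild-type RiboLace, against at most 0.0496 CPM in any total RNA library. Small nucleolar RNAs took 0.818% to 2.17% of reads in RiboLace and 0.00132% to 0.00414% in total RNA. The RiboLace protocol is not part of the labels, and the part of library making in the gap was not tested.

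With both libraries of a genotype pooled, all RNU genes of mutant F3 were 2932-fold higher in RiboLace than in untreated total RNA (exact 95% interval 2642 to 3262), and those of wild type 3741-fold higher (3355 to 4184). These intervals and those that follow cover counting error only, since no molecular identifiers are named. RNU4ATAC had 9841 reads in mutant RiboLace and 5 in mutant total RNA. In wild type it had 17778 reads in RiboLace and 1 in total RNA. Its RiboLace reads chose it, so these counts are a description and no ratio is drawn from them. The 22 U2 genes of the set had no read in either total RNA group, but RiboLace reads chose them. All 71 U2 genes had 54 total RNA reads in mutant F3 and 38 in wild type, and were 3702-fold (interval 2835 to 4933) and 9041-fold (6585 to 12779) higher in RiboLace. U7 showed the smallest ratio of the classes with over 100 RiboLace reads: all 149 U7 genes were 200-fold higher in RiboLace in mutant F3 (138 to 299) and 198-fold higher in wild type (129 to 320).

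Summed over all its genes, U6 held a larger share of RNU reads in total RNA than in RiboLace. All 1277 U6 genes had 181 of the 358 RNU reads in the total RNA of mutant F3 and 167 of 326 in that of wild type. In RiboLace they held 21.8% and 25.1% of RNU reads in mutant libraries and 9.05% and 13.7% in wild-type libraries. The shares in the assays rest on different genes. The 55 U6 genes of the set had 11 of the 181 total RNA reads and 7 of the 167. In RiboLace these 55 held 20.9% and 24.1% of RNU reads in mutant libraries and 8.68% and 13.0% in wild-type libraries. On them the direction is reversed, but RiboLace reads chose them. Of the 112 genes, 75 had no read in any of the 10 total RNA libraries, and the remaining 37 shared 248 reads. RNU5F-1, on the opposite strand in an intron of ARMH1, had the most, 47, with 0.0917 to 0.348 CPM in HHT libraries, 0.0984 to 0.364 CPM in mutant controls and 0.259 and 0.284 CPM in wild type.

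**Figure D2:**
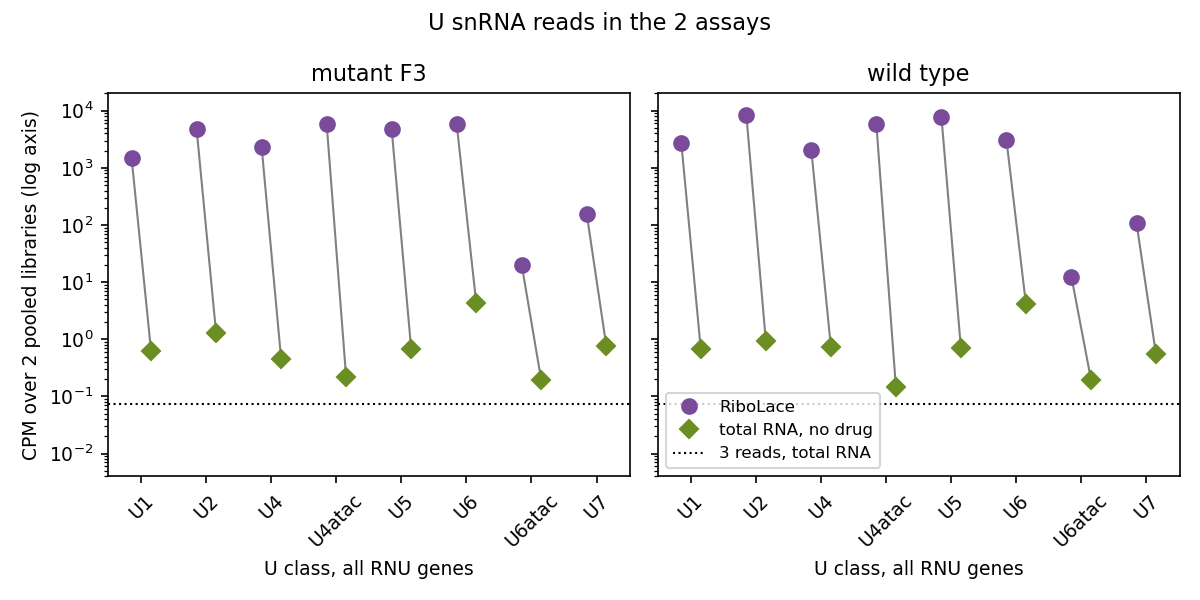
Summed CPM of all RNU genes of each class (log axis) in RiboLace (purple circles) and in total RNA without HHT (green diamonds), mutant F3 left and wild type right, 2 libraries pooled per point. The dotted line is the level of 3 total RNA reads, and each of the 8 classes drawn stands higher in RiboLace than in total RNA in both genotypes.

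Mutant and wild-type RiboLace libraries differed by class. U6 was higher and U1 lower in the mutant in the libraries sequenced, U2 was lower by less, U4 held genes that moved in both directions, and U4atac, U5, U6atac and U7 showed little that could be told from the spread. Summed over the 55 U6 genes, levels were 4995 and 6961 CPM in mutant and 2967 and 2912 CPM in wild type. Both mutant libraries stood above both wild-type libraries, a ratio of means of 2.03. U1 summed to 1716 and 888 CPM in mutant and 2533 and 3099.8 CPM in wild type, with no overlap and a ratio of 0.462. U2 summed to 4365 and 5928 CPM in mutant and 9711 and 6102 CPM in wild type. The groups did not overlap, but the gap between mutant replicate 2 and wild-type replicate 2 was small beside the spread within wild type.

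U4 summed to 2446 and 2026 CPM in mutant and 2018 and 2012 CPM in wild type, which nearly meet. U4atac, a single gene, stood at 5461 and 7154 CPM in mutant and 7202 and 2961 CPM in wild type, with overlap. U5 summed to 4458 and 5455 CPM in mutant and 9417 and 4987 CPM in wild type, also with overlap. Wild-type replicate 1 exceeded wild-type replicate 2 by 2.43 times for U4atac, 1.89 times for U5 and 1.59 times for U2, and by 1.02 times for U6. U6atac, here RNU6ATAC3P alone, stood at 9.22 and 8.60 CPM in mutant and 6.88 and 11.4 CPM in wild type, with overlap. U7, here the pseudogene ENSG00000252057.2 alone, stood at 158 and 109.7 CPM in mutant and 105 and 92.0 CPM in wild type, without overlap. Genes under the minimum went with their classes in U6, where the other 1222 summed to 227 and 295 CPM in mutant and 126 and 158 CPM in wild type, while the other 103 U1 genes summed to 30.2 and 21.5 CPM in mutant and 40.8 and 24.7 CPM in wild type.

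**Figure D3:**
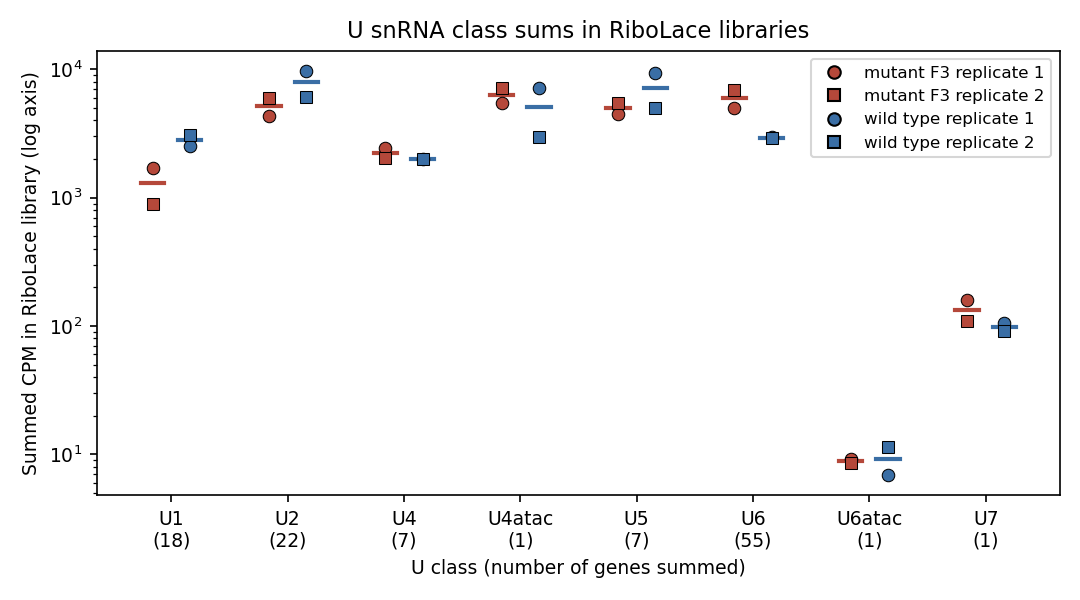
Summed CPM of the genes of each U class (number of genes in brackets, log axis) in each RiboLace library, mutant F3 in red left of wild type in blue, replicate 1 as circles and replicate 2 as squares, means as bars. U6 is higher and U1 lower in both mutant libraries than in both wild-type libraries, and the wild-type replicates stand apart for U2, U4atac and U5.

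Some other nuclear and small RNAs differed with genotype in the same libraries, not all in the same direction. MALAT1, a nuclear long noncoding RNA, had 2798 and 5432 CPM in mutant and 392 and 559.5 CPM in wild type (log2 difference 3.05, SE 0.40, adjusted p 5.77e-06 by edgeR). Small nucleolar RNAs took 1.78% and 2.17% of reads in mutant libraries and 0.818% and 0.876% in wild-type libraries. VTRNA1-1, a cytoplasmic vault RNA, rose with 258 and 312 CPM in mutant and 104 and 99.6 CPM in wild type (log2 difference 1.41, SE 0.26, adjusted p 0.000749). Of 6 cytoplasmic small RNAs tested, 2 were called higher and 1 lower, against 6.18% and 5.59% of all genes. RN7SL2, on that list, stood lower, with 482 and 604 CPM in mutant and 1468 and 926 CPM in wild type. RNY1, whose values are given above, overlapped between genotypes. The part of these RNAs in the class differences was not tested.

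In edgeR's quasi-likelihood test with Benjamini-Hochberg adjustment over all 9805 genes tested, 84 of the 112 genes passed the filter on low counts, 6 of them through the libraries of 1 genotype alone, and 27 were called at an adjusted p under 0.05, 16 higher and 11 lower in the mutant. RNU6-891P and RNU2-51P, among the 16 called higher, passed the filter only through the mutant libraries, where they are high. Their calls support nothing. Over all genes tested 11.8% were called, 6.18% higher and 5.59% lower. The median log2 difference was -0.03 over the 84 genes and -0.01 over all genes. With no filter all 112 genes were tested and 26 were called, 12 higher and 14 lower. The count rests on single libraries: without wild-type replicate 1 it was 10, without mutant replicate 1 it was 16 and without mutant replicate 2 it was 8, and DESeq2 called 14. Of the 27 genes 3 were called whichever library was left out: RNU6-888P, RNU6-47P and RNU6-510P.

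Of the 34 U6 genes tested 12 were higher, 1 was lower and 21 were not called, with a median log2 difference of 0.86, and 30 of the 34 had a positive difference. RNU6-891P, among the 12, and RNU6-33P, among the 30, passed the filter on low counts only through the mutant libraries, where they are high. Their direction therefore supports nothing. With no filter 43 of 55 U6 genes had a positive difference, 9 were higher and 1 was lower, with a median of 0.69. RNU6-758P, the most read, had 2285 and 3572 CPM in mutant and 1464 and 1369 CPM in wild type. Its groups did not overlap, and its difference did not pass the test (log2 0.98, SE 0.36, adjusted p 0.0705). RNU6-44P, which differs from RNU6-1 in 5 columns, rose with 438.5 and 632 CPM in mutant and 226 and 213 CPM in wild type (log2 1.21, SE 0.29, adjusted p 0.00613). RNU6-227P, on chromosome 17, rose with 442 and 569.8 CPM in mutant and 163 and 227 CPM in wild type (log2 1.32, SE 0.28, adjusted p 0.00264). Both mutant libraries of each of these genes stood above both wild-type libraries.

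Further down in reads, RNU6-888P, in an intron of NME5, had 80.5 and 58.1 CPM in mutant and 10.8 and 22.8 CPM in wild type (log2 2.12, SE 0.35, adjusted p 0.000161). RNU6-47P had 61.2 and 92.5 CPM in mutant and 25.6 and 20.9 CPM in wild type (log2 1.58, adjusted p 0.00184). RNU6-784P had 109 and 114 CPM in mutant and 35.9 and 53.1 CPM in wild type (log2 1.29, adjusted p 0.00355). All 3 rose with no overlap. RNU6-891P rests on 60 reads in all and passed the filter on low counts only through the mutant libraries, where it is high, so that its call supports nothing, with 15.9 and 60.2 CPM in mutant and 5.41 and 1.90 CPM in wild type (log2 2.90, SE 0.58, adjusted p 0.00149). RNU6-510P, at 74.8% identity to RNU6-1 and in no other gene, was the 1 U6 gene that fell, with 11.7 and 15.1 CPM in mutant and 51.6 and 41.7 CPM in wild type (log2 -1.94, SE 0.38, adjusted p 0.00133). Left out in turn, single libraries moved the number of U6 genes called higher between 4 (without mutant replicate 2) and 11 (without wild-type replicate 2), and the U6 median between 0.78 and 1.03.

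U1 genes leaned low in the mutant: all 14 tested had a negative difference, 13 of 14 when scaled by library totals alone and 16 of 18 with no filter. None was higher, 3 were lower and 11 were not called, with a median log2 difference of -0.77 and a range of -1.76 to -0.03. RNU1-77P, among the 14 tested and not called, passed the filter on low counts only through the wild-type libraries, where it is high. Its direction therefore supports nothing. RNU1-63P, the most read, fell with 497 and 228 CPM in mutant and 922 and 1502 CPM in wild type (log2 -1.76, SE 0.35, adjusted p 0.00141). RNU1-67P, in an intron of SLC25A43 and 95.1% identical to RNU1-1, fell with 55.3 and 27.95 CPM in mutant and 82.1 and 163 CPM in wild type (log2 -1.46, SE 0.33, adjusted p 0.00368). RNU1-16P had 441 and 247 CPM in mutant and 654 and 597 CPM in wild type and sat at the threshold (log2 -0.90, adjusted p 0.0501). RNU1-20P had 446 and 193.5 CPM in mutant and 513 and 503.5 CPM in wild type (log2 -0.69, adjusted p 0.147). The 11 RNVU1 genes, U1 variants outside the symbol rule, summed to 39.4 and 34.4 CPM in mutant and 74.2 and 69.2 CPM in wild type, with no overlap. No U1 gene was called without mutant replicate 2, 2 were called without wild-type replicate 1, and 5 were called without either of the other libraries, all lower.

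Of 20 U2 genes tested 2 were higher, 4 were lower and 14 were not called, with a median of -0.56. RNU2-51P, among the 2 higher, had 14.25 and 27.95 CPM in mutant and 5.90 and 5.69 CPM in wild type. It passed the filter on low counts only through the mutant libraries, where it is high, so its call supports nothing. RNU2-7P and RNU2-70P, not called, passed only through the wild-type libraries. With no filter 1 of 22 U2 genes was higher and 5 were lower, with a median of -0.66. RNU2-37P, the most read, had 1364 and 2277 CPM in mutant and 3068 and 1824 CPM in wild type, with overlap (log2 -0.51, SE 0.38, adjusted p 0.392). RNU2-6P fell with 620.4 and 707 CPM in mutant and 2129 and 1228 CPM in wild type (log2 -1.42, SE 0.35, adjusted p 0.00766), and RNU2-3P with 184 and 236.5 CPM in mutant and 641 and 385 CPM in wild type (log2 -1.38, adjusted p 0.00359). These 2 genes are 93.7% and 93.2% identical to RNU2-1. RNU2-68P, on chromosome X, had 1224 and 1279 CPM in mutant and 1540.0 and 1417 CPM in wild type (log2 -0.31, adjusted p 0.577). Without wild-type replicate 1 no U2 gene was called and the U2 median was -0.24.

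The U4 genes split. RNU4-1 and RNU4-2, the functional pair, fell: RNU4-2 had 369.7 and 381 CPM in mutant and 817 and 652 CPM in wild type (log2 -1.04, SE 0.30, adjusted p 0.0209), and RNU4-1 had 248 and 269 CPM in mutant and 662.5 and 496 CPM in wild type (log2 -1.24, SE 0.29, adjusted p 0.00622). RNU4-82P rose with 1377 and 1140 CPM in mutant and 391 and 647 CPM in wild type (log2 1.24, SE 0.32, adjusted p 0.0115). RNU4-62P, in an intron of HCLS1 on the strand of the host, rose with 412 and 187 CPM in mutant and 80.6 and 145 CPM in wild type (log2 1.42, SE 0.31, adjusted p 0.00351). In each of these 4 genes the genotypes did not overlap, and the near-equal U4 sums hide the opposed directions. The remaining 2 of 6 tested were not called, and without wild-type replicate 1 or without mutant replicate 1 no U4 gene was called. Without mutant replicate 2 a single U4 gene was called, higher, so RNU4-1 and RNU4-2 kept their calls only when wild-type replicate 2 was the library left out.

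RNU4ATAC, whose sums are given above, did not pass the test (log2 0.22, SE 0.45, adjusted p 0.796), and its sign turned to -0.34 without wild-type replicate 2. Among 7 U5 genes 1 was lower and 6 were not called. RNU5E-1 had 3287 and 4101 CPM in mutant and 7698 and 4220 CPM in wild type (log2 -0.77, SE 0.42, adjusted p 0.237). RNU5F-1 had 371 and 454 CPM in mutant and 386 and 230.4 CPM in wild type (log2 0.33, adjusted p 0.496), and RNU5A-8P had 396.5 and 335 CPM in mutant and 407 and 194 CPM in wild type (log2 0.20, adjusted p 0.726). The 1 call, RNU5D-1, had 36.05 and 34.4 CPM in mutant and 109 and 35.1 CPM in wild type, so that wild-type replicate 1 alone stood apart (log2 -1.16, adjusted p 0.0445). RNU5D-1 falls outside the rule for named genes and was chosen after its values were seen. RNU6ATAC3P, on chromosome 17 and 95.2% identical to RNU6ATAC, rests on 41 reads and did not pass the test (log2 -0.0051, SE 0.60, adjusted p 0.997). The U7 pseudogene ENSG00000252057.2, on chromosome 8, did not pass the test (log2 0.41, SE 0.27, adjusted p 0.338).

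**Figure D4:**
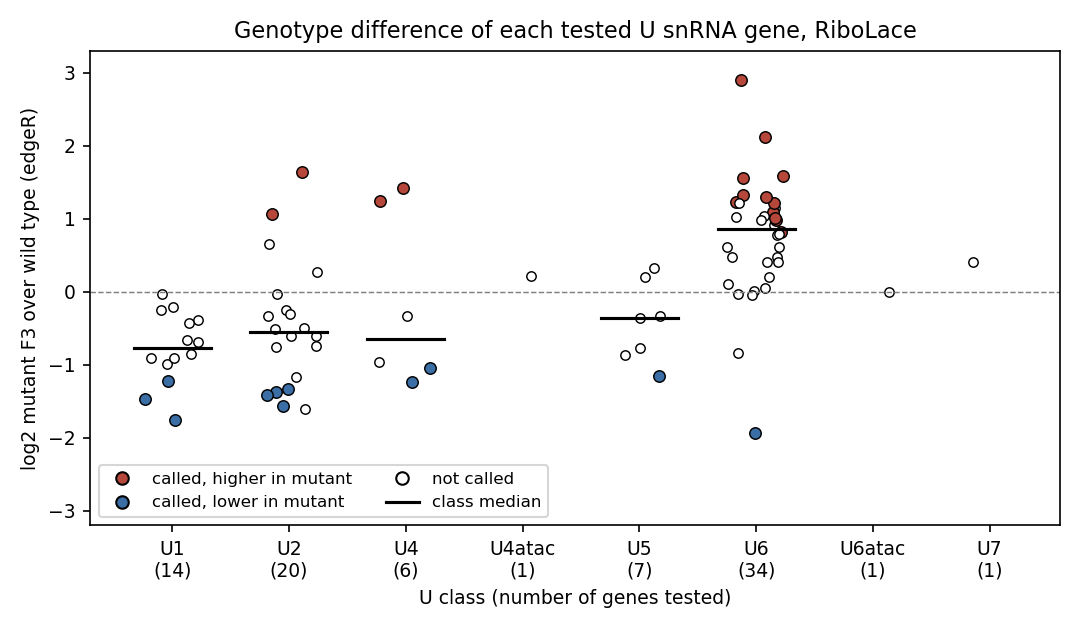
log2 difference (mutant F3 over wild type, RiboLace, edgeR) of each of the 84 genes tested, by U class, with called genes filled (red higher, blue lower) and the class median as a bar. U6 holds 12 of the 16 genes called higher, all 14 U1 genes lie below 0 (13 of 14 when scaled by library totals alone), and U4 divides into 2 genes called higher and 2 called lower. RNU6-891P and RNU2-51P, drawn as called higher, passed the filter on low counts only through the mutant libraries, where they are high.

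Total RNA could not address genotype or HHT for these RNAs gene by gene. No gene of the set passed the filter on low counts in HHT against control, in mutant control against wild type or in the HHT response of line G7 against line F3, and none was called. All genes tested were called at 79.2%, 4.56% and 4.2% in those 3 comparisons, the last 2.14% higher and 2.06% lower in G7. With no filter 35, 29 and 35 genes of the set entered the edgeR tests, again none was called, and 2, 1 and 0 stood at an unadjusted p under 0.05. DESeq2 also called 0. At 14 to 30 reads per library over the whole set, a difference in a single gene was not detectable at this depth.

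The sum over the set was 1.00 to 1.49 CPM (median 1.20) in HHT libraries, 0.689 to 1.51 CPM (median 1.25) in mutant controls, and 1.30 and 1.14 CPM in wild type. These ranges overlap. Over all 1806 RNU genes the 4 HHT libraries (6.30, 6.92, 7.60 and 7.84 CPM) stood below the 4 controls (9.15, 8.16, 10.2 and 9.0 CPM), in line F3 and in line G7 alike. U6 genes made most of that gap, with 2.87, 2.98, 3.72 and 3.79 CPM in HHT and 4.97, 3.80, 5.61 and 4.92 CPM in control, where the highest HHT library and the lowest control nearly meet.

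The proteins that bind U RNAs were measured as mRNAs, in 79 snRNP protein genes and 47 genes for making, trimming and transporting the RNAs, chosen from general knowledge. In RiboLace 72 of the 79 were tested, none was higher and 11 were lower in the mutant, with a median log2 difference of -0.33. Over all genes 6.18% were higher and 5.59% lower, with a median of -0.01. SNRPF, a member of the Sm ring, had 77.1 and 60.2 CPM in mutant and 146.5 and 124 CPM in wild type (log2 -1.01, adjusted p 0.0155). LSM2, a member of the LSm ring on U6, had 36.05 and 43.0 CPM in mutant and 90.4 and 76.8 CPM in wild type (log2 -1.18, adjusted p 0.0114). SF3B6, a U2 snRNP protein at the branch point, had 184 and 131 CPM in mutant and 349.9 and 239.9 CPM in wild type (log2 -0.96, adjusted p 0.0267). All 3 fell with no overlap. SNRNP25, a protein of the minor spliceosome's U11/U12 particle, was also lower, with 29.3 and 40.9 CPM in mutant and 58.0 and 70.2 CPM in wild type (log2 -0.97, adjusted p 0.0427). None of the 79 was called without mutant replicate 2 or without wild-type replicate 1, 3 were called without mutant replicate 1, 17 were called without wild-type replicate 2, and DESeq2 called none.

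Of the 47, 42 were tested in RiboLace, 3 were higher and none was lower, a share near the 6.18% of all genes that were higher. All 3 are on the list of snRNA transcription genes. BDP1, a subunit of the RNA polymerase III factor TFIIIB, which serves U6, had 119 and 185 CPM in mutant and 52.1 and 55.0 CPM in wild type (log2 1.41, SE 0.28, adjusted p 0.00137). None of the 47 was called without mutant replicate 2, and 1 was called without wild-type replicate 1.

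In total RNA, mutant control against wild type gave 0 higher and 9 lower of 78 snRNP protein genes, and 1 higher and 1 lower of 46 genes of RNA making, against 2.49% higher and 2.07% lower over all genes. SNRPG, of the Sm ring, had 51.5 to 76.6 CPM in mutant controls and 106.5 and 104 CPM in wild type (log2 -0.71, SE 0.14, adjusted p 0.0273). SLBP, which binds the histone mRNA stem-loop that U7 processing acts beside, had 56.9 to 63.2 CPM in mutant controls and 87.4 and 84.1 CPM in wild type (log2 -0.54, SE 0.09, adjusted p 0.0123). SNRNP25 had 41.0 to 46.2 CPM in mutant controls and 62.5 and 55.8 CPM in wild type (log2 -0.44, adjusted p 0.0436). Without either wild-type library no snRNP protein gene was called, and 2 were called without mutant control replicate 1. Each line was also fitted alone, with an error of its own, so counts called there cannot be set against the 9. The median log2 difference of the 78 snRNP protein genes was -0.22 with line F3 alone and -0.16 with line G7 alone. Over all genes tested those medians were -0.006 and 0.005.

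HHT changed many of these mRNAs, in a comparison where 39.9% of all genes tested were higher and 39.3% lower. Of 78 snRNP protein genes 36 were higher and 17 lower, and of 46 genes of RNA making 25 were higher and 13 lower. Scaling by library totals alone in place of TMM moved the median of all genes to 0.23 and gave 54 higher and 8 lower, and 30 higher and 9 lower, so the splits depend on the scaling. INTS6, a subunit of the Integrator complex that cuts the 3′ end of nascent polymerase II snRNAs, had 343 to 394 CPM in HHT and 47.9 to 57.2 CPM in control (log2 2.58, SE 0.07, adjusted p 1.81e-12). TOE1, a nuclease that trims snRNA 3′ ends, had 57.8 to 59.9 CPM in HHT and 12.7 to 15.3 CPM in control (log2 1.85, SE 0.07, adjusted p 2.43e-11). INTS6 was one of 5 Integrator genes that rose, and 5 others of the 14 fell.

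ZRSR2, which reads the 3′ splice site of minor-class introns, had 44.7 to 47.9 CPM in HHT and 11.9 to 15.4 CPM in control (log2 1.44, SE 0.09, adjusted p 3.05e-09). It was one of 5 of 8 minor spliceosome protein genes tested that rose, and 1 fell. PRPF8, the scaffold protein of the U5 particle, had 251 to 295 CPM in HHT and 531 to 615 CPM in control (log2 -1.32, SE 0.07, adjusted p 4.25e-10). BDP1 had 106 to 164 CPM in HHT and 38.2 to 51.8 CPM in control (log2 1.36, SE 0.07, adjusted p 4.57e-10). In none of these 5 genes did the groups overlap, and none differed between lines in its HHT response past the threshold (adjusted p of the interaction 0.337 to 0.84). SNRPG, 1 of 8 Sm core genes, did differ, as did TXNL4A and SART1, 2 of 16 U5 and tri-snRNP genes. Over all genes 4.2% did. Each of the 3 was lower in G7 (log2 -0.61, -0.62 and -0.42, adjusted p of the interaction 0.0288, 0.0417 and 0.0486 by edgeR).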

How the data were processed

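RNA-seq of OCI-AML2 cells was analysed from 1 deposited table of raw read counts per gene, 14 libraries by 58037 versioned Ensembl gene IDs. The authors used STAR 2.6.0b, DESeq2 and GRCh38, per the submitters' processing notes, which give no roles. The sources used here do not give the counting program, its treatment of strand or of reads that match several genes, or the RiboLace protocol. IDs were matched to GENCODE 29 (57433 matched, 604 did not). The 112 genes are the snRNA genes whose symbol begins RNU with at least 20 RiboLace reads. The genes and lists were chosen with earlier results of these data known.

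Levels (CPM) are reads per 1000000 counted reads. Tests used edgeR 4.0.16 in R 4.3.3 (filterByExpr, TMM, quasi-likelihood F-test, Benjamini-Hochberg adjustment over all genes tested, adjusted p under 0.05), one fit per comparison: the 4 RiboLace libraries, the 8 HHT and control libraries with line as covariate (also with the line interaction), and the 6 mutant control and wild-type libraries with F3 and G7 as 1 group. Standard errors are the log2 difference over the root of F. RiboLace against total RNA is given without a test. Named were all genes of classes with up to 3 members, the 3 most read of larger classes, up to 10 called genes per comparison by adjusted p, and up to 3 called genes per list, of which some are given. Alternatives were RLE factors, library totals, TMM over protein-coding genes, no filter, DESeq2 1.42.0, each library left out, each line alone and the replicate number as a block. HHT and control titles share numbers that fall on the same lines. Departures from the group mean correlated at 0.463 to 0.626 between HHT and control libraries of one number. Each group holds both lines, so a difference between the lines raises this correlation with or without pairing. It therefore cannot decide whether these libraries pair. No 2 replicates agreed within sampling noise (chi-square per degree of freedom 3.14 or more). The script was tested on simulated data with 200 changed genes. Depth was 465052 to 2034796 counts per RiboLace library and 19250789 to 21925693 per total RNA library. Sequences of some U5 and U6 genes are not reported here.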

Additional observations from a re-analysis of the deposited data

Results flagged for a closer look

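In 4-library groups, 38 sets of values were searched for a library far from the rest, where chance alone flags about 1 in 20, and 1 was found. ZRSR2 was lowest in mutant control replicate 1 (line F3), at 11.9 CPM, against 15.2 to 15.4 CPM in the other controls and 44.7 to 47.9 CPM in all HHT libraries.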

How the results depend on the processing

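The count of 27 U RNA genes called between mutant and wild-type RiboLace was 26 to 31 under RLE factors, library totals, protein-coding TMM and no filter, 14 under DESeq2, and 8 to 36 when a library was left out. With the replicate number as a block it was 36, 27 of them shared with the 27. The numbers did not pair these libraries (r of deviations -0.03). In total RNA the count was 0 under every alternative run, the replicate block included. Class sums over protein-coding reads, or over all RNU genes of a class, moved by less than the replicate spread except in U6atac. U6atac stood at -0.035 (log2) for RNU6ATAC3P and 0.55 over all 41 U6atac genes. Leaving a library out could hardly move a sum past that spread, which comes from the same 2 libraries a group, so it tests nothing. U4atac changed from 0.31 to -0.19 (log2) without wild-type replicate 2 and U5 from -0.54 to -0.01 without wild-type replicate 1. The log2 ratio of RiboLace over total RNA in mutant F3 moved from 14.3 to 14.7 over protein-coding reads. Of 260 values for 26 named genes, 216 kept direction and call, 26 lost the call, 10 gained it and 8 turned sign. RNU6ATAC3P, at -0.0051, gave 0.052 with library totals, 0.013 with protein-coding TMM and 0.025 with the replicate block, and -0.33 to 0.26 as libraries were left out. The other 3 turned without wild-type replicate 2: left out in turn, single libraries gave -0.34 to 1.08 for RNU4ATAC, -0.056 to 0.83 for RNU5F-1 and -0.29 to 0.92 for RNU5A-8P. The cause was not tested. In mutant control against wild type, snRNP protein genes called were 22 with the replicate block and 14 with no filter, against 9. The share of all genes called in those 2 fits is not given here. Depth limits the total RNA comparisons, with 14 to 30 reads over the 112 genes in a library, and 2 libraries a group limit those in RiboLace.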
